A study of Mus musculus with 2 samples.

Results

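The 39 protein-coding genes of the mouse Hoxa, Hoxb, Hoxc and Hoxd clusters were described here by their position and by the open chromatin around them. They were taken by symbol (Hoxa, Hoxb, Hoxc or Hoxd followed by a number) from the 21938 protein-coding genes of the annotation of the mm10 assembly. Chromatin accessibility had been measured by ATAC-seq, in which the Tn5 transposase inserts sequencing adapters into accessible DNA and places where insertions pile up are called as peaks. The series held 1 group: primary cells labelled hematopoietic stem cells, from male C57BL/6J mice, adults of 5 to 6 weeks, with no genetic change or treatment named. It has 2 libraries of 50000 cells each. The labels call the libraries biological replicates 1 and 2. Each has its own biosample but both name 1 donor, and nothing says that they came from different animals. No other cell type was measured in the samples used here, so no condition was compared and no test was run.

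Hox genes encode homeodomain transcription factors that give cells along the body axis their positional identity. Mammals carry 4 clusters that arose by duplication, and genes at matching positions in different clusters form a paralog group, numbered from 1 at the anterior, early-expressed end to 13 at the posterior, late-expressed end. In most adult cells the clusters are held silent over long stretches by Polycomb complexes, which place methyl groups on histone H3 lysine 27, and they are kept active by Trithorax-type complexes that contain MLL proteins. In blood, Hoxa and Hoxb genes are the members best known in stem and progenitor cells: Hoxb4 for expansion of stem cells when overexpressed, and Hoxa9 and Hoxa10 for leukemia. Hox proteins bind DNA together with the cofactors of the PBX and MEIS families.

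Each cluster was taken from the first to the last base of its Hox genes. Hoxa has 11 genes in 105 kb on chromosome 6 (52155590 to 52260880), all transcribed from the minus strand. Hoxb has 10 genes in 174 kb on chromosome 11 (96194316 to 96368256), of which Hoxb13 stands apart from the rest. Hoxc has 9 genes in 116 kb on chromosome 15 (102921103 to 103036852), and Hoxd has 9 genes in 96.8 kb on chromosome 2 (74668310 to 74765142). Windows reached 200 kb beyond each end. A promoter was 1 kb either side of any annotated transcription start site (TSS). Peaks came from the shorter, IDR-thresholded list of each replicate, from its longer pseudoreplicated list, called less strict below, and from the conservative list made for the series as a whole. IDR, the irreproducible discovery rate, measures how well the ranks of peaks repeat between subsamples or libraries. The signal value of a peak is the score that the authors' pipeline gave it, used here to describe and rank peaks within a list, and read depth is unknown from peak lists. A missing peak is therefore one that was not called, not proof of closed chromatin.

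The sequences below are those of peaks that the results turn on and that lie outside untranslated regions, so that a reader can see what the accessible DNA of the clusters consists of. They are from the RefSeq copy of GRCm38.p6 (mm10), 5′ to 3′ on the plus strand around the peak summit. Capitals mark matches to the motifs named further on: SP/KLF at Hoxa4 and Hoxd3os1, ETS at Haglr and at the last Hoxd flank peak, and RUNX and MEIS at the first Hoxd flank peak. The Hoxa7 and Hoxb6 windows have no match.
Hoxa4 promoter peak, chr6:52191873-52191973: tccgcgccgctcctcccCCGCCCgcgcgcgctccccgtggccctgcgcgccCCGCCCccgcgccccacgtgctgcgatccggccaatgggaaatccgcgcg
Hoxa7 internal TSS peak, chr6:52217543-52217643: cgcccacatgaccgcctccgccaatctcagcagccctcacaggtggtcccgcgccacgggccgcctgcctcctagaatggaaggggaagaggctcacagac
Hoxb6 intron peak, chr11:96294638-96294738: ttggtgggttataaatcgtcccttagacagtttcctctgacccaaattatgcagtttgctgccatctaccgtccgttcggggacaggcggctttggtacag
Hoxd3os1 peak in the Hoxd3 and Hoxd4 intron, chr2:74715890-74715990: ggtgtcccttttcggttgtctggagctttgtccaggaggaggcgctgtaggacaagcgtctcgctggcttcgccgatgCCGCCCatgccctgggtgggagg
Haglr peak, chr2:74749394-74749494: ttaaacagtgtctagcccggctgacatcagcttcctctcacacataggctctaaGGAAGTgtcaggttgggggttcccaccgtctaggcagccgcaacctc
Hoxd flank peak on the Hoxd13 side, chr2:74606223-74606323: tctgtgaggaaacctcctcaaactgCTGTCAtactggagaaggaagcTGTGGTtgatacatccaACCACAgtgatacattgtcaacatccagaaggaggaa
Hoxd flank peak on the Hoxd1 side, chr2:74926317-74926417: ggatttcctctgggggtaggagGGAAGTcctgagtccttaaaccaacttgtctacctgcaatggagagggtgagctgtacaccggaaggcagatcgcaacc

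In the thresholded lists of both replicates a promoter peak was found at 2 of the 39 Hox genes (5.13%), Hoxa10 among them, against 42.5% of all protein-coding genes. Replicate 1 alone gave 2 genes, against 47.2% of all genes, and replicate 2 alone gave 3, with Hoxa7 added, against 45.5%. In the less strict lists 7 Hox genes had a promoter peak in both replicates (17.9%), against 59.5% of all genes, and Hoxa4, Hoxa7, Hoxa9, Hoxa10, Hoxb1 and Hoxc4 were among them. With at least 1 replicate the less strict lists held 12, against 65% of all genes, the added ones being Hoxa3, Hoxa11, Hoxb4, Hoxb5 and Hoxc6. The series-level conservative list, which despite its name is longer than the series-level thresholded list (43478 against 36033 peaks), held 8, against 56.3% of all genes, among them Hoxa3, Hoxa7, Hoxa9, Hoxa10, Hoxa11, Hoxb1 and Hoxb4. No promoter peak of either replicate was found in the less strict lists at the other 27 genes, which include Hoxa13, Hoxb6 to Hoxb9, Hoxb13, Hoxc8 to Hoxc13 and all 9 Hoxd genes.

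The 4 clusters differed in these counts. In the less strict lists 5 of 11 Hoxa genes had a promoter peak in both replicates and 7 in at least 1, against 1 and 3 of 10 Hoxb genes, 1 and 2 of 9 Hoxc genes and 0 and 0 of 9 Hoxd genes, beside 59.5% and 65% of all protein-coding genes. At least 1 replicate thus marked Hoxa genes at about the share of all genes, and genes of the other clusters at a lower share. Hoxa had the most such genes in the thresholded and the less strict lists, and Hoxd had none in these or in the conservative list. Genes of 1 cluster are neighbours on the same stretch of chromosome and do not count as independent units.

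By paralog group, counts in the less strict lists were higher for the anterior genes (groups 1 to 4) than for the central (5 to 8) or posterior genes (9 to 13), and all were below the 59.5% and 65% of all genes. Of 12 anterior genes 4 had one in both replicates and 6 in at least 1, of 11 central genes 1 and 3, and of 16 posterior genes 2 and 3. In the thresholded lists of both replicates each of these sets had at most 1 gene, which shows no such order. In group 4, for example, Hoxa4 and Hoxc4 had less strict peaks in both replicates, and Hoxb4 had one in replicate 2. Group 10 differed between clusters, with a thresholded peak of both replicates at Hoxa10 and no peak at Hoxc10 and Hoxd10. No gene of the anterior group 2, the central group 8 or the posterior groups 12 and 13 had a promoter peak in these lists.

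Among the Hoxa genes, a posterior member had the strongest promoter peak. Hoxa10 (ENSMUSG00000000938.11), expressed in blood progenitors, had a peak at chr6:52240398-52240696 within its 5′ exon, in annotated untranslated sequence 0.245 kb from the nearest TSS. Its signal values of 9.83 and 9.93, the 66.5 and 54.4 percentiles, were the highest of any Hox promoter in both replicates and nearly equal. In −log10 q-values the peak reached 18.6 and 20.4.

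The other Hoxa promoter peaks were weaker, and some lay at internal starts. Hoxa7, a central gene active in trunk patterning, has 5 annotated TSSs and carried 2 peaks. One at chr6:52217441-52217714 lay 0.088 kb from an internal TSS and had signal values of 3.65 in replicate 1, in the less strict list only, and 6.16 in replicate 2, where it passed the threshold at the 4.12 percentile of the list. The peak at its most 5′ TSS, chr6:52221695-52221990, had 4.14 and 4.35 and passed in neither. Hoxa9, whose product is the Hox protein most often tied to acute myeloid leukemia, had a peak at chr6:52226046-52226360, 0.061 kb from an internal TSS, with 5.01 and 4.44 in the less strict lists. Its most 5′ TSS, at position 52231089 next to Hoxa10, had no peak. Hoxa4 had 4.91 and 4.41 at chr6:52191801-52192433, with the summit 0.170 kb upstream of its TSS, within an intron of the longer Hoxa3 transcripts. All of these values are below the medians of the less strict lists, 5.67 in replicate 1 and 6.44 in replicate 2. Hoxa3, at its most 5′ TSS, had 5.00 in replicate 2 alone, and Hoxa11, with a summit 0.824 kb upstream of its nearest TSS and over its antisense RNA Hoxa11os, had 5.90 in replicate 1 alone. One further peak, in a Hoxa3 intron 1.36 kb from a Hoxa3 TSS, was called in replicate 2 alone with 5.34. Hoxa5, Hoxa6 and Hoxa13 had no promoter peak in these lists.

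**Figure D1:**
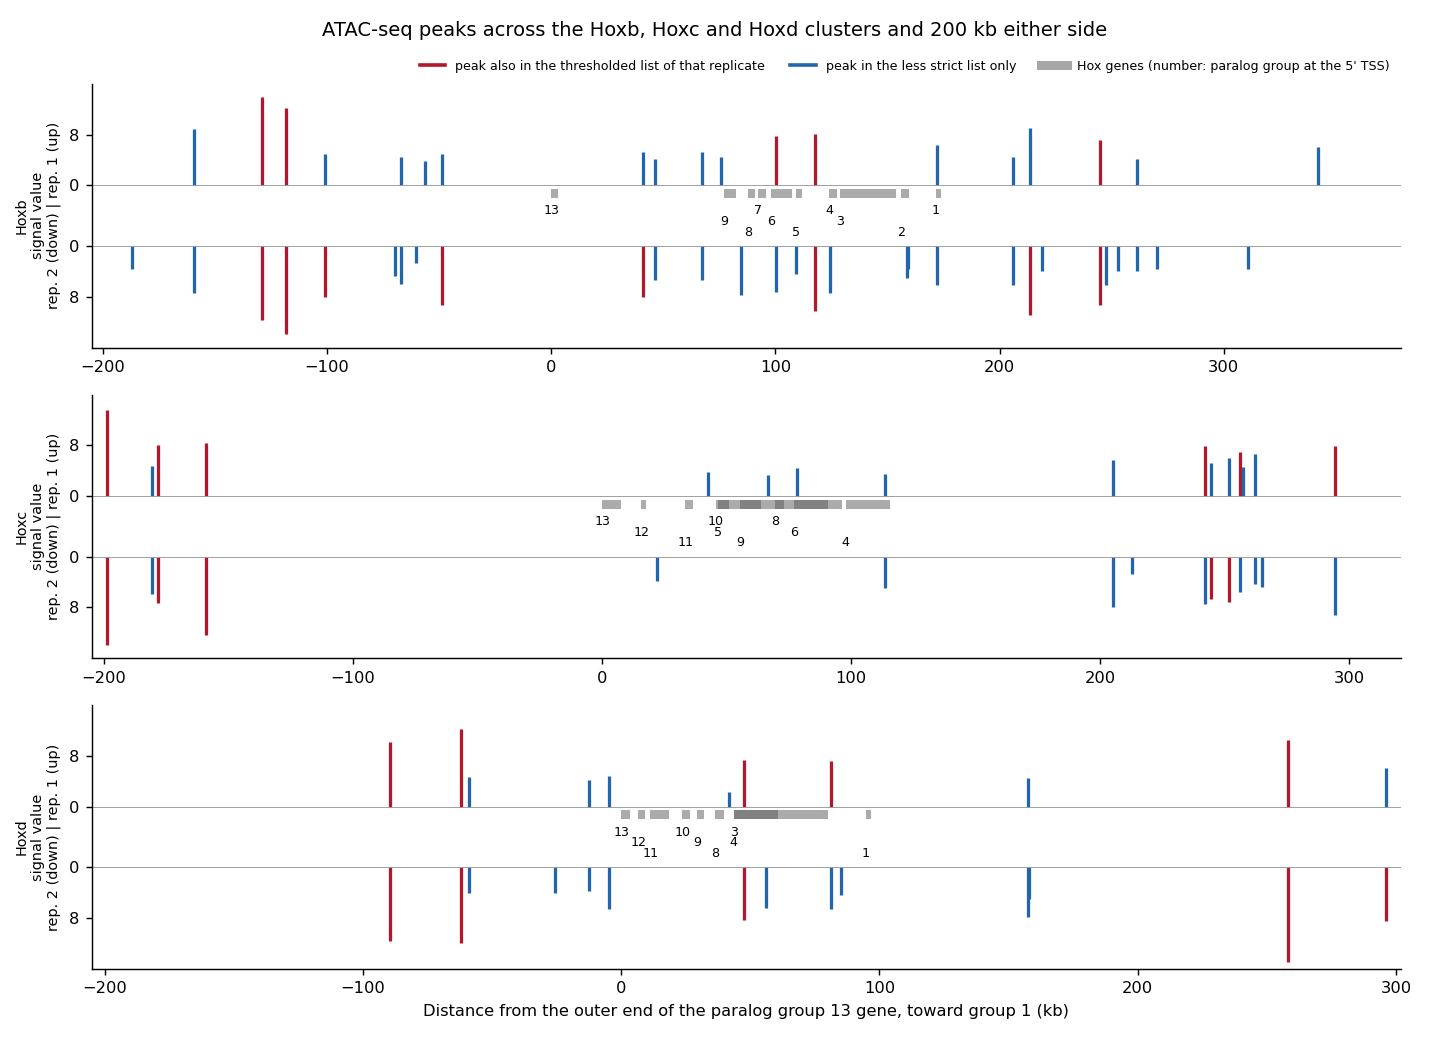
Peaks of the less strict lists across Hoxb, Hoxc and Hoxd and 200 kb either side, drawn from the outer end of the paralog group 13 gene (0 kb) toward group 1. Bars give signal values, replicate 1 upward and replicate 2 downward, red where the peak is also in the thresholded list of that replicate; grey boxes are Hox genes. Hoxc has no red bar between its flanks, and the red bars of Hoxb and Hoxd inside the cluster lie between or within genes rather than at Hox promoters.

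Among the Hoxb genes no promoter passed the threshold in either replicate. Hoxb1, the anterior gene that marks hindbrain rhombomere identity, had a peak at chr11:96365871-96366358, in coding sequence 0.024 kb from an annotated TSS, with signal values of 6.39 and 6.14 in the less strict lists, close to the medians of those lists. Hoxb4, known for promoting self-renewal when overexpressed in blood stem cells, had 7.38 in replicate 2, above the median, and no promoter peak in replicate 1. Hoxb5, used in reporter mice to mark long-term stem cells, had 4.41 in replicate 2 and none in replicate 1. The series-level thresholded list, made from both libraries, did hold promoter peaks at Hoxb1 and Hoxb4.

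The thresholded peaks inside Hoxb lay away from its promoters, between genes or in an intron. The peak shared by the thresholded lists of both replicates is intergenic, between Hoxb5 and Hoxb4. Its signal values were 8.07 and 10.3, the 41.9 and 59.0 percentiles, higher than at any Hoxb promoter in the same replicate. A peak in a Hoxb6 intron, chr11:96294559-96294828, had 7.80 in replicate 1, where it passed the threshold, and 7.28 in replicate 2, where it did not. A peak in the long interval between Hoxb13 and Hoxb9, chr11:96234965-96235220 and 36.3 kb from the nearest Hoxb9 TSS, did the reverse, with 5.29 in replicate 1 and 7.94 in replicate 2, above the threshold in the latter. In the same interval a pair of weaker peaks was in both less strict lists: one with 4.16 and 5.30, and one at the promoter of the non-coding RNA Gm53 with 5.29 and 5.30. Of the 12 merged regions inside Hoxb, 3 touched a Hoxb promoter. Inside Hoxa the corresponding count was 8 of 9, inside Hoxc 2 of 5 and inside Hoxd 0 of 5. Hox promoters made up 34.6% of the length of the Hoxa cluster, 18.2% of Hoxb, 22.1% of Hoxc and 30.6% of Hoxd.

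Hoxc had the emptiest cluster in the thresholded lists. No thresholded peak of either replicate lay between chr15:102762180 and chr15:103163147, a stretch of 401 kb that holds all 9 Hoxc genes. The median distance between neighbouring thresholded peaks over the genome was 28.8 kb, and 3.59% of such gaps were at least as long, although these made up 44.4% of the total length of all gaps. The less strict lists held 5 regions inside Hoxc, of which 1 was in both replicates. That region, chr15:103034515-103034736, lay in the untranslated region of Hoxc4, 0.216 kb from a downstream TSS, with signal values of 3.40 and 4.98. Hoxc6 had 4.43 in replicate 1 and no peak in replicate 2. The conservative list held 0 peaks inside Hoxc, against 7 in Hoxa, 7 in Hoxb and 2 in Hoxd. The flanks were not empty: 11 peaks in both less strict lists lay within 200 kb of Hoxc.

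Inside Hoxd the thresholded peaks lay at starts of non-coding transcripts. The peak found in both thresholded lists, chr2:74715796-74716131, had signal values of 7.35 and 8.26, the 29.2 and 27.3 percentiles. It lies at the promoter of the antisense RNA Hoxd3os1, in an intron of the long read-through transcripts of Hoxd3 and Hoxd4, and 4.01 kb from the nearest Hoxd4 TSS. The second, chr2:74749237-74749587, lies at an internal TSS of Haglr, the long non-coding RNA transcribed away from Hoxd1, with 7.23 in replicate 1, above the threshold, and 6.58 in replicate 2, below it. The other 3 regions inside Hoxd were each in 1 less strict list, with values from 2.27 to 6.34. None of the posterior Hoxd genes, which shape limbs and digits, had a promoter peak in these lists.

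Micro-RNA genes lie among the Hox genes and target some of them. None of the 7 micro-RNA genes annotated inside the clusters had a region with a summit within 1 kb of its 5′ end. The nearest was 1.49 kb from Mir10a in Hoxb, the Hoxb4 promoter peak of replicate 2, and 1.64 kb from Mir10b in Hoxd, a peak called in the less strict list of replicate 2 with a signal value of 6.34. Mir196a-1 and Mir196b had a region in both less strict lists 3.43 and 3.92 kb away.

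Beyond Hox genes, promoter peaks of the other genes in the windows were counted. Of the 16 other protein-coding genes with a start in the flanks, 7 had a thresholded promoter peak in both replicates and 9 in the less strict lists, shares near the 42.5% and 59.5% of all genes. The 7 were Skap2 beside Hoxa, Ube2z and Atp5g1 beyond Hoxb13, Calcoco1, Smug1 and Cbx5 around Hoxc, and Lnpk beyond Hoxd13. Signal values at Skap2, an adaptor protein of blood cells, were 10.2 and 10.2, at the ubiquitin enzyme gene Ube2z 13.9 and 11.6, and at Calcoco1 13.5 and 13.9, all above every Hox promoter of the same replicate. At Smug1 the thresholded peaks of the replicates covered different TSSs. At Cbx5 the thresholded promoter peak of replicate 2 lay beyond the window, and the promoter region inside it was thresholded in replicate 1 alone. Evx1 and Evx2, the homeobox genes that sit beyond the group 13 ends of Hoxa and Hoxd, had no promoter peak in any of these lists. Among 43 non-coding genes inside the clusters 3 had a thresholded promoter peak in both replicates, Hoxd3os1 among them, and 5 a less strict one, with Gm53 and Haglr added. Over all 33475 genes that are not protein-coding the shares were 6.73% and 12.2%, so these counts are near the background. In the flanks 2 of 35 had a peak in both replicates, in the thresholded and in the less strict lists.

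Merging all peaks of the 5 lists gave 85 regions in the windows, 31 inside the clusters and 54 in the flanks. Inside, 4 were in both thresholded lists, 4 in 1 thresholded list, 7 in both less strict lists and 16 in 1 less strict list. In the flanks these counts were 10, 9, 17 and 18. Every region had a summit 31-mer that occurs once in the genome, so none of the summits is on repeated sequence of that length. Shared thresholded peaks stood at 8.13 per Mb inside the clusters, 6.25 per Mb in the flanks and 7.24 per Mb over the genome, from counts of 4, 10 and 19727. In the less strict lists the densities were 30.5, 22.5 and 18.6 per Mb. Hoxa reached 57.0 per Mb from 6 peaks and Hoxc 8.64 per Mb from 1. Pooled over the 4 clusters, the density per base was thus not below that of the genome, whereas per gene the share of Hox promoters with a peak was. By cluster, shared thresholded peaks inside stood at 19.0 per Mb in Hoxa, 5.75 in Hoxb, 0 in Hoxc and 10.3 in Hoxd, so Hoxb and Hoxc were below the genome. The counts behind these densities are small and the variation between animals is not known. Of the shared less strict peaks 26.7% inside the clusters (4 of 15) and 27.8% in the flanks (10 of 36) were in both thresholded lists, against 38.8% of the 50697 over the genome.

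**Figure D2:**
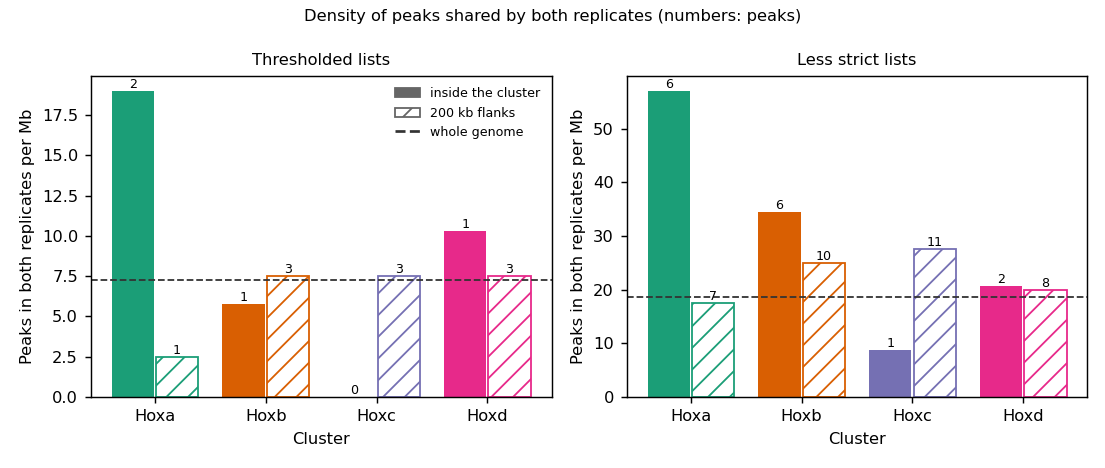
Density of peaks found in both replicates, per Mb, inside each cluster (filled) and in its flanks (hatched), for the thresholded lists on the left and the less strict lists on the right; numbers on the bars are counts of peaks and the dashed line is the whole genome. Hoxa is densest inside the cluster in both panels, and Hoxc is the sole cluster at 0 in the thresholded lists.

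Pooled over the 4 clusters, the peaks inside ranked lower than those of the flanks. Their median position in the less strict list of replicate 1 was the 39.1 percentile (21 regions) and in that of replicate 2 the 34.3 percentile (25 regions), against 49.5 (41 regions) and 45.0 (49 regions) in the flanks. The clusters did not all go this way. In replicate 1 the medians inside and in the flanks were 12.02 and 63.8 for Hoxc and 43.4 and 45.9 for Hoxb, but 39.1 and 22.5 for Hoxa and 68.9 and 44.5 for Hoxd. In replicate 2 they were 18.2 and 59.5 for Hoxc, 45.3 and 43.9 for Hoxb, 31.1 and 34.4 for Hoxa and 50.2 and 58.9 for Hoxd. The lower rank inside Hoxc thus held in both replicates, from 4 and 2 regions. A pair of flank peaks away from protein-coding promoters had higher signal values in both replicates than every Hox promoter. Both were around Hoxd, where enhancer landscapes are known on either side of the cluster. On the Hoxd13 side chr2:74606112-74606661, 62.0 kb from Hoxd13, had 12.2 and 11.9, and on the Hoxd1 side chr2:74926062-74926749, 163 kb from Hoxd1, had 10.6 and 14.9. Other distal peaks in both thresholded lists were 72.7 kb beyond Hoxb1, with 7.18 and 9.32, and 178 and 159 kb beyond Hoxc13, with 7.99 and 7.33 and with 8.32 and 12.4. Which gene these regions act on was not measured. Across the regions in both less strict lists the log2 signal values of the replicates correlated with a Pearson r of 0.78 inside the clusters (15 regions) and 0.80 in the flanks (36 regions), a description over regions of the same pair of libraries.

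**Figure D3:**
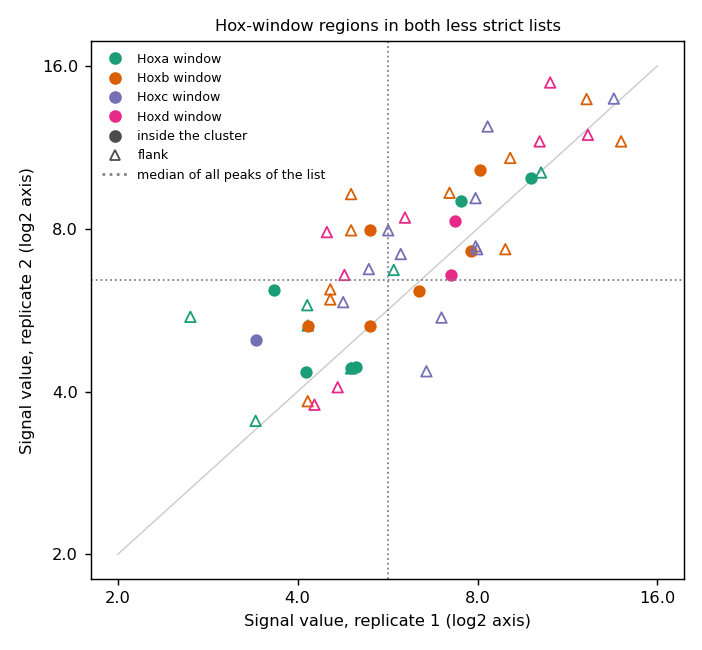
Signal value in replicate 1 against replicate 2 for the 51 regions in both less strict lists, on log2 axes, with filled circles inside the clusters and open triangles in the flanks. Dotted lines are the medians of all peaks of each list and the grey line marks equal values. The points scatter around the line, and the strongest are flank regions.

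Hox promoters are rich in CpG dinucleotides, a property that goes with promoter peaks over all genes, so the counts were set beside genes of like CpG content. The CpG observed to expected ratio at the most 5′ TSS had a median of 0.591 over the 39 Hox genes and 0.474 over all protein-coding genes. Of the 17 Hox genes in the highest tertile of all genes, 0 had a thresholded promoter peak in both replicates, against 66.6% of the genes of that tertile, and 1, Hoxa4, had a less strict one, against 87.7%. The middle tertile held 19 Hox genes, of which 2 and 5 had such peaks, against 50.1% and 70.8% of its genes. The lowest tertile held Hoxb2, Hoxb3 and Hoxc4, of which Hoxc4 had a less strict peak, at a TSS other than the one used for its CpG ratio. Shares over all genes of that tertile were 10.9% thresholded and 20.1% less strict, and 3 genes are too few to set against them. The Hoxd genes, which have no promoter peak, had the highest median ratio of the 4 clusters, 0.631, and Hoxb the lowest, 0.481.

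**Figure D4:**
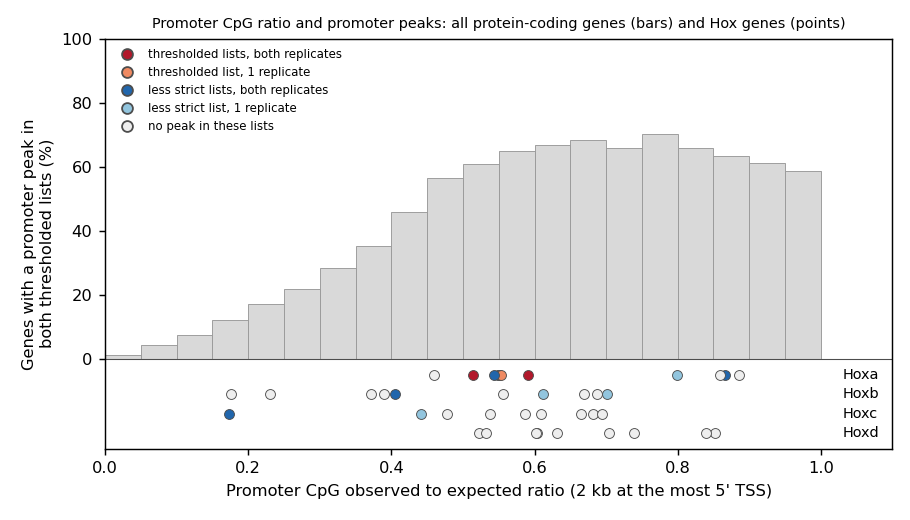
Share of all protein-coding genes with a thresholded promoter peak in both replicates (bars, bins of CpG observed to expected ratio with at least 50 genes), and below it the ratio of each Hox gene, coloured by the strictest list that holds its promoter peak. Most Hox genes lie at ratios where the bars are high, and the points of the highest ratios are mostly empty.

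The DNA of the Hox regions was searched for short motifs, on both strands, in the summit base and 50 bases either side of it. For blood factors the letters were TGTGGT for the RUNX family, GGAAGT for the ETS family, AGATAA for the GATA family and TTGCGCAA for the CEBP family. For Hox proteins and their partners they were TTTATG for HOX alone, TGATTNAT for the joint site called HOX-PBX/MEIS here, and TGACAG for MEIS alone. General ones were CAGCTG for the E-box, GGGCGG for the SP/KLF family and the core of the insulator factor CTCF. No motif contains another. Among the 15 regions inside the clusters in both less strict lists, SP/KLF letters were in 5 (33.3%, against 15.0% of the 50697 shared less strict peaks of the genome), ETS in 3 (20% against 21.5%), the E-box in 1, and none of the others in any. Among the 36 in the flanks ETS was in 8 (22.2%), SP/KLF in 8 (22.2%), the E-box in 4, MEIS in 2 and RUNX, GATA and CTCF in 1 each, against genome shares of 15.5% for RUNX, 8.82% for MEIS and 5.22% for CTCF. HOX and HOX-PBX/MEIS letters, in 2.99% and 0.789% of the shared less strict peaks, were in none of the 51 regions. Shares this low give few matches in 51 regions, so their absence says little. Among regions called in replicate 2 alone, HOX letters were in the Hoxa3 promoter peak (3 matches) and in a Hoxb flank peak at Ttll6 (1 match). With at most 1 of the 12 letters off, and counting only windows with a match on the plus strand, the CTCF core was in 0 of the 15 regions inside. In the flanks it was in 3 of the 36 (8.33%, against 7.59%). Windows with a match on the minus strand alone were left out, here and in the genome share. The flank region with the exact core, which is on the minus strand, is thus not among the 3. These shares do not give how many regions hold the core on either strand. Median GC content was 62.4% inside, 58.9% in the flanks and 54.5% over the genome, and GGGCGG is itself made of G and C. Of these 51 regions the one with RUNX letters, the Hoxd flank peak on the Hoxd13 side printed above, holds TGTGGT once on each strand, and CTGTCA, which is TGACAG on the minus strand. A match is a string of letters and does not show that a factor binds.

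Genes for the partners and regulators of Hox proteins had promoter peaks at shares somewhat above those of all genes, with no test made. Beside genes of like CpG content neither list stood clearly above background. Of 9 cofactor genes of the PBX, MEIS and PKNOX families, 5 had a thresholded promoter peak in both replicates (42.5% of all genes did). A less strict one was found at 8 (59.5% of all genes). The 9 cofactor genes are all in the middle or highest CpG tertile. Shares over all genes there were 50.1% and 66.6% thresholded, and 70.8% and 87.7% less strict, so the cofactor counts are near background. Examples were Meis1, with signal values of 7.25 and 7.67, Pbx3, with 8.95 and 9.41, and Pbx4. Of 29 regulators of Hox clusters, which include Polycomb, MLL-complex, CDX and cohesin genes, 15 had a thresholded peak in both replicates and 22 a less strict one. Most of the regulators are in the highest CpG tertile, where the shares over all genes were higher, 66.6% and 87.7%. Set beside genes of that tertile, the regulators as a list were thus not above background. Among them the Polycomb gene Cbx8 had signal values of 11.9 and 8.16, and Cdx1 and Cdx2, caudal-type activators of Hox genes in the embryo, had no peak in either list. Of 8 related homeobox genes outside the clusters, such as Evx1, Evx2 and Gbx1, 0 had a thresholded peak in both replicates and 2 a less strict one (Gbx2 and, named after its value was seen, Gsx1). Promoter peaks show that the start of a gene was accessible, not how much RNA it gave.

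The cell label was set beside marker promoters. Of 10 stem cell markers 5 had a thresholded promoter peak in both replicates, against 42.5% of all genes (Ctnnal1, Fgd5, Hlf, Kit and Meis1), and 9 had a less strict one, against 59.5%. Of 20 markers of other cells 6 had a thresholded one: the megakaryocyte genes Gp9, Itga2b and Pf4, with signal values from 6.53 to 9.18, the endothelial gene Cdh5, and the stromal genes Col1a1 and Pdgfrb. In the less strict lists 9 of the 20 had one in both replicates, with Mpo, Csf3r and Kdr added. Of the 9 B cell, T cell and erythroid markers 0 had a thresholded one, and neither did any granulocyte or monocyte marker. Most of those 9 are in the lowest CpG tertile, where 10.9% of all genes had one, so the 0 says little about the cells present. The markers of this paragraph are named after their values were seen. The part of other cells in the Hox peaks was not tested.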

How the data were processed

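The values are peak lists deposited for 2 ATAC-seq libraries of hematopoietic stem cells, in mm10 per the file notes. The sources used here name neither the aligner nor the peak caller. The deposited columns give each peak a signal value and its q-value as −log10, both assigned by the authors' pipeline. Per the deposited file notes each list of a replicate derives from that library alone. Read depth is unknown from these lists.

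Lines with the same interval were counted once, at the strongest summit, which left 25141 and 24495 thresholded and 62918 and 64843 less strict peaks in replicates 1 and 2. Genes and TSSs of any transcript came from GENCODE vM21, and sequence from GRCm38.p6. A gene was counted when a peak overlapped a promoter by at least 1 bp in each replicate. Peaks were shared at 1 bp of overlap. Counts were made with Python 3.11.15, pandas 2.3.3 and numpy 2.4.6, and the overlap rules were tested on simulated peaks placed at annotated genes. Hox genes with a peak were named, and some results are not reported here; other lists gave up to 4 names in alphabetical order, apart from those marked as chosen after their values were seen. The members and lists were chosen with earlier results of these data known. Alternatives were other lists, overlap rules, promoter and flank widths and each replicate alone. Counts with TSSs of protein-coding transcripts only, and the CTCF core with 1 letter off, were chosen after seeing the data.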

Additional observations from a re-analysis of the deposited data

How the results depend on the processing

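The counts depended on the list. Hox genes with a promoter peak in both replicates numbered 2 in the thresholded lists, 7 in the less strict lists and 7 in the ranked lists. The series-level thresholded list held 4, the series-level conservative list 8 and the strongest 50% of peaks 1. The series-level lists come from both libraries together, so their peaks need not be in each replicate. For Hoxa the count of 2 became 5, 5, 2, 6 and 1 in the same order. For Hoxb the count of 0 became 1, 1, 2, 2 and 0, and for Hoxc the count of 0 became 1, 1, 0, 0 and 0. For Hoxd it was 0 under each of these. Over all protein-coding genes the shares were 42.5% in the thresholded, 59.5% in the less strict and 56.3% in the series-level conservative lists. No such share is at hand for the ranked, series-level thresholded and strongest 50% lists. Moves under these cannot be read as particular to Hox genes. Other promoter windows, summits in place of overlaps, and, added after the data had been seen, TSSs of protein-coding transcripts alone gave 2 Hox genes. With that last choice 41.3% of 21853 genes had a promoter peak. Leaving out a replicate gave 2 to 3 Hox genes, 3 without replicate 1.

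Shared peaks in the windows numbered 14, and 51, 54, 33, 44 and 8 in the less strict, ranked, series-level thresholded, series-level conservative and strongest 50% lists. Flanks of 100 kb left 7, and leaving out a replicate gave 19 to 22, 22 without replicate 1. For the series-level lists and for 1 replicate alone these are counts of all peaks, not of shared ones. Inside the clusters the count of 4 became 15, 16, 9, 16 and 1 in the same order, and 6 with either replicate left out. The cause was not tested. No paired analysis was possible because the series holds 1 group. Read depth, which limits which weak peaks are called, is unknown.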
